A study of Mus musculus with 19 samples.

Results

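The 10 genes described here, Gdf15, Fgf21, Atf4, Atf5, Ddit3, Trib3, Asns, Phgdh, Mthfd2 and Chac1, are the transcription factors, target enzymes and secreted factors of the integrated stress response. They were chosen by gene symbol from a mouse heart RNA-seq table that held 56066 genes, and all 10 were found there. In the 3 libraries grouped as P21 hearts of the PDK1 conditional knockout (cKO), Gdf15 mRNA was above every wild-type (WT) library at each age. P21 library 63, with a cKO label but no KO mark in its title, was left out and lay inside the P21 WT range. Counted as a cKO heart, it ended the Gdf15 call (limma, adjusted p = 0.0593). Phgdh was also called higher in P21 cKO hearts, a call lost in 11 of 28 other settings. Atf4, Ddit3 and Trib3 mRNA did not pass the test between genotypes. Across postnatal age, Phgdh, Mthfd2 and Asns were lower and Chac1 was higher at P21 than at P7 in both genotypes. Of all tested genes 64.4% were called lower at P21 in WT hearts and 39% in cKO hearts. The Asns call in cKO hearts was lost when libraries were scaled to a common median ratio. Chac1 was tested only because its P21 levels were high enough.

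In the integrated stress response, kinases that sense endoplasmic reticulum (ER) stress, amino acid shortage, viral RNA or haem and mitochondrial stress phosphorylate the alpha subunit of the initiation factor eIF2. General translation then falls, while upstream reading frames in the Atf4 and Atf5 mRNAs allow more of their proteins to be made, so that mRNA levels show a part of this control at most. ATF4 and its partners switch on genes for amino acid synthesis, one-carbon metabolism and glutathione turnover, and mitochondrial faults in heart and skeletal muscle are known to raise the secreted proteins GDF15 and FGF21, which are called mitokines for that reason.

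Whole-heart RNA was sequenced from 3 P7 cKO and 5 P7 WT libraries, from 3 P21 cKO and 4 P21 WT libraries, and from 3 P1 WT libraries, P being the postnatal day. The design text places the earliest age at P0 and the labels at P1, and P1 is used here. The cKO libraries carry the genotype PDK1 CKO and the others WT, with no further allele or agent in the labels used here. The titles of P21 WT libraries 2 and 3 hold the letters B6, and no strain is stated for the other libraries. The sources used here do not give the Cre driver and the cells it acts in, which of the mouse genes with the alias PDK1 was deleted, or whether the libraries came from separate animals, so p-values measure the spread between libraries, which may be technical. Library titles take a plain number or a letter code. All 6 cKO libraries have plain numbers, all 3 P1 libraries have letter codes, and the P7 and P21 WT libraries have both kinds, so title style was a term of the model.

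Depth is unknown, because the deposited values are in TPM, a library-scaled unit per transcript length that keeps no trace of how many reads were sequenced. At least 1 TPM was reached by 13000 to 13344 genes in P21 cKO libraries and by 12422 to 12916 genes in P21 WT libraries, and by 13364 to 13797 genes in the libraries of the earlier ages. P21 library 63 has a cKO genotype label but a title without the KO mark of the other cKO libraries. It was left out of every group, and its values are given separately. Pdpk1 mRNA was at 4.95 to 5.55 TPM in P21 cKO libraries and at 6.17 to 7.65 TPM in P21 WT libraries (limma, adjusted p = 0.366), and Pdk1 mRNA was at 31.6 to 37.7 TPM in P21 cKO libraries and at 24.3 to 29.4 TPM in P21 WT libraries (limma, adjusted p = 0.0473). A Cre deletion can leave most of a transcript in place, so these gene totals do not check the deleted part. The summed level of 8 cardiomyocyte markers was 53474 to 56920 TPM in P21 cKO libraries and 48922 to 54285 TPM in P21 WT libraries. Of these 8 markers 1 was called higher in P21 cKO hearts and 0 lower, and their median log2 difference was 0.02. Of 8 fibroblast markers all 8 were higher in P21 cKO hearts, with summed levels of 953 to 1192 TPM in P21 cKO libraries and 619 to 784 TPM in P21 WT libraries, and of 8 endothelial markers 7 were higher. Of all tested genes 19.5% were called higher at P21. The median log2 difference was 0.65 for the fibroblast and 0.49 for the endothelial markers, beside 0.22 over all genes. Marker counts were not repeated with libraries scaled to a common median ratio. No macrophage marker passed at P21 (limma, 0 at an unadjusted p under 0.05), with sums of 187 to 249 TPM in P21 cKO libraries and 201 to 296 TPM in P21 WT libraries. In whole heart, a change in the number of cells of a type and a change in RNA per cell cannot be told apart.

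ATF4 binds, as a dimer with C/EBP proteins, an 8-letter amino acid response element whose core can be written TGATGNAA. The stretches below, from RefSeq on GRCm38.p6, are shown because they give the 4 members that hold this element near their start, beside Gdf15, the member that differed most between genotypes. Each runs 5′ to 3′ in the direction of its gene, and capitals mark the match to these letters on either strand. For Gdf15 and Chac1 the 250 bases before the annotated start are given, and for Fgf21, Asns and Trib3 the 30 bases around the match.
Gdf15, chr8:70632457-70632706, minus strand: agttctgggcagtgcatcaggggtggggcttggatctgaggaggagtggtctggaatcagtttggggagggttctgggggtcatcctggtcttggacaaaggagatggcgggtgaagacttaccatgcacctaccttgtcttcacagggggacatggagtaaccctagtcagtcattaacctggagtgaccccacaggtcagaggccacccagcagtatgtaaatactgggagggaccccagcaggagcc
Chac1, chr2:119350992-119351241, plus strand: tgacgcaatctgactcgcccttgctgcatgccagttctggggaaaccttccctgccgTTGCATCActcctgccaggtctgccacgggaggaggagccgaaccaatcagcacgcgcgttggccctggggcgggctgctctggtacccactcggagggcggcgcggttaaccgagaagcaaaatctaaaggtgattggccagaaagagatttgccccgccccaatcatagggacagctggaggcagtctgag
Fgf21, chr7:45615611-45615640, minus strand: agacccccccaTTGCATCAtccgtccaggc
Asns, chr6:7693214-7693243, minus strand: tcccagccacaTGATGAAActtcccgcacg
Trib3, chr2:152344028-152344057, minus strand: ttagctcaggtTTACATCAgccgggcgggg

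All 10 genes matched a RefSeq window of 300 bases (250 before and 50 after a start), 12 windows in all because Gdf15 and Atf5 have a pair each. The element was found in 4 genes. In Fgf21 it ran from base -139 to -132, in Chac1 from base -193 to -186, in Asns from base -23 to -16 and in Trib3 from base 15 to 22, counted from the annotated start. It was found in neither Gdf15 window. Of all 32817 mouse windows of the same length, 3.97% held it. The cyclic AMP response element TGACGTCA, which reads the same on both strands, was in no window of the 10 genes and in 1.79% of all windows. A match is a description of letters and not a binding site, and no match says nothing about distal sites.

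The levels of the 10 genes spanned more than 3 orders of magnitude in TPM, a unit that is per transcript length and so can be compared between genes. Over the 18 grouped libraries Atf4 averaged 77.9 TPM, Atf5 23.4 TPM and Ddit3 19.6 TPM, so the transcription factors were the most abundant. The enzymes and Gdf15 were far lower, with means of 4.18 TPM for Mthfd2, 3.73 TPM for Phgdh, 2.56 TPM for Asns, 2.15 TPM for Gdf15, 1.83 TPM for Chac1 and 1.46 TPM for the pseudokinase gene Trib3. Fgf21 averaged 0.0167 TPM. Genes were tested when at least 3 libraries reached 1 TPM, and 9 of the 10 passed. Gdf15 reached 1 TPM in 12 of 18 libraries and Chac1 in 9, so both lie near the low end of what was tested. Chac1 reached it in all grouped P21 libraries and otherwise only in P7 WT libraries 72 and 3. It thus passed the filter only through P21, the age where it is high.

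Tests used limma on log2(TPM + 1) over all 14812 genes that passed this filter, with Benjamini-Hochberg adjustment within each comparison and a threshold of 0.05. The added 1 makes a log2 difference smaller than the true one where levels are low. The median gene itself was 0.22 higher in P21 cKO than in P21 WT hearts, 0.47 lower in P21 WT than in P7 WT hearts and 0.24 lower in P21 cKO than in P7 cKO hearts, so differences are also given relative to that median. In the other comparisons between groups the median gene differed by 0.02 or less.

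Gdf15 encodes growth differentiation factor 15, a secreted member of the TGF-beta superfamily whose receptor GFRAL is found in the hindbrain. Gdf15 (ENSMUSG00000038508, chromosome 8, 70629393 to 70632456 on mm10, minus strand) had 7.20, 3.40 and 4.91 TPM in P21 cKO libraries 55, 59 and 64, against 0.67, 0.54, 0.34 and 0.30 TPM in P21 WT libraries 57, 60, 2 and 3. All 3 P21 cKO libraries were above all 4 P21 WT libraries, with library 55 the highest. The means were 5.17 ± 1.91 TPM in P21 cKO hearts and 0.463 ± 0.174 TPM in P21 WT hearts (SD, n = 3 and 4), a ratio of 11.2. The difference on the log2 scale was 1.87 ± 0.22 (SE; 95% interval 1.41 to 2.33; limma, adjusted p = 9.67e-05), which was 1.65 above the median gene. The call was lost where library 63 was counted as a cKO heart (1.33, limma, adjusted p = 0.0593).

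At P7 the direction was the same and the difference smaller. Gdf15 had 2.51, 2.75 and 4.76 TPM in P7 cKO libraries 69, 75 and 82, against 2.02, 1.85, 2.05, 1.39 and 1.16 TPM in P7 WT libraries 72, 76, 77, 1 and 3. No P7 cKO library was within the P7 WT range, and the letter-code WT libraries 1 and 3 were the lowest. The means were 3.34 ± 1.24 TPM in P7 cKO hearts and 1.69 ± 0.398 TPM in P7 WT hearts (SD, n = 3 and 5), a ratio of 1.97. The log2 difference of 0.53 ± 0.20 (95% interval 0.10 to 0.96) had an unadjusted p of 0.0194 and did not pass adjustment (limma, adjusted p = 1). The difference between the genotype effects at P21 and P7 was 1.34 ± 0.28 (limma, adjusted p = 0.0126), 1.10 above the median gene. With only plain-number libraries it was 1.39 and did not pass (limma, adjusted p = 0.104), and with library 63 as a cKO heart it was 0.81 (limma, adjusted p = 0.379).

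In WT hearts Gdf15 was low at P1, with 0.76, 0.71 and 1.39 TPM, which overlaps the P7 WT range (limma, log2 difference P7 over P1 0.26 ± 0.22, adjusted p = 0.394). P21 WT hearts were below every P7 WT and every P1 WT library. The P21 WT mean was 0.273 times the P7 WT mean (log2 difference -0.84 ± 0.18, limma, adjusted p = 4.84e-04, and -0.37 relative to the median gene). In cKO hearts the P21 and P7 ranges overlapped, and the difference of 0.50 ± 0.21 did not pass (limma, adjusted p = 0.0651). It passed without P7 cKO library 82 (0.72, limma, adjusted p = 0.0120), without P21 cKO library 59 (0.72, limma, adjusted p = 0.0125) and when libraries were scaled to a common median ratio (0.73, limma, adjusted p = 0.0178). By mean level the 5 groups stood in the order P21 cKO, P7 cKO, P7 WT, P1 WT and P21 WT. Of the neighbours in this order, P21 cKO and P7 cKO overlapped, and so did P7 WT and P1 WT. Fibroblast and endothelial markers were higher with Gdf15 in P21 cKO hearts, as given above, and their part in the Gdf15 difference was not tested. Red cell markers summed to 10703 to 20934 TPM in P21 cKO libraries and 6225 to 16185 TPM in P21 WT libraries, which overlap, and none of the 5 tested passed (limma, 0 at an unadjusted p under 0.05).

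**Figure D1:**
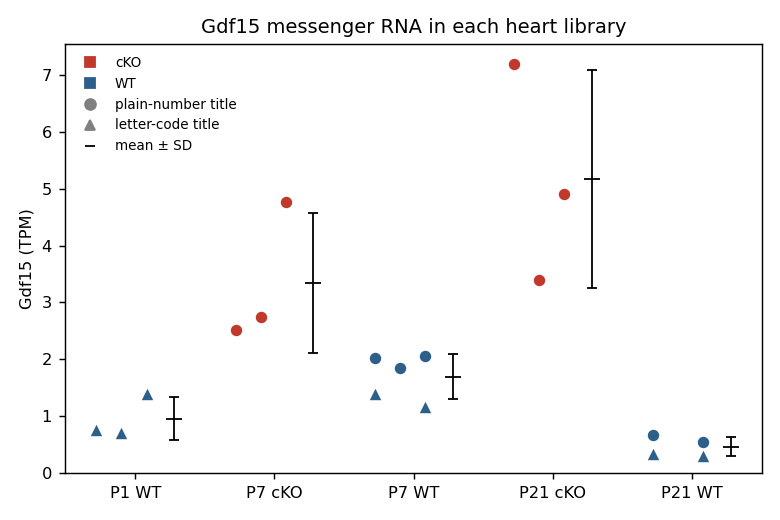
Gdf15 in each of the 18 grouped heart libraries, in TPM on a linear axis, by group; circles are libraries with plain-number titles, triangles those with letter-code titles, red cKO and blue WT, and the bar is the mean with its SD. The 3 P21 cKO libraries sit between 3.40 and 7.20 TPM, and the 4 P21 WT libraries sit between 0.30 and 0.67 TPM.

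Fgf21 (ENSMUSG00000030827, chromosome 7, 45613886 to 45615490 on mm10, minus strand) encodes a hormone best known from liver that signals through FGF receptors and the coreceptor beta-Klotho. It was listed at 0 in 16 of 19 libraries. The exceptions were P7 cKO libraries 75 and 82, with 0.07 TPM each, and P7 WT library 3, with 0.16 TPM. All P21 cKO, P21 WT and P1 WT libraries were listed at 0, so no difference between genotypes was detectable and no test was made. Hepatocyte markers were also close to 0 in most libraries, with sums of 0.27 to 0.95 TPM in P21 cKO libraries and 0.53 to 13.5 TPM in P21 WT libraries. Receptor mRNA was measured in the same libraries. Gfral was listed at 0 in all groups, and Klb, which encodes beta-Klotho, averaged 0.03 TPM in P21 cKO hearts and 0.04 TPM in P21 WT hearts. Of 7 receptor and coreceptor genes 4 were tested, and at P21 Fgfr1 was higher, at 14.3 ± 1.32 TPM in cKO hearts and 10.4 ± 1.13 TPM in WT hearts (SD, n = 3 and 4; log2 difference 0.44, limma, adjusted p = 0.0282). A share of 1 of 4 is near the 19.5% of all genes called higher at P21, where the median gene was 0.22 higher. The Fgfr1 call was lost in 8 of 28 other settings, among them median-ratio scaling (0.22, limma, adjusted p = 0.266) and, in turn, without P21 cKO libraries 55 and 59 (0.37 and 0.46) or P21 WT library 57 (0.38).

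Atf4 (ENSMUSG00000042406, chromosome 15, 80255184 to 80257541 on mm10, plus strand) encodes the central transcription factor of the response. It had 79.5, 56.1 and 65.6 TPM in P21 cKO libraries 55, 59 and 64, against 67.5, 66.7, 51.6 and 55.3 TPM in P21 WT libraries 57, 60, 2 and 3. The groups overlapped, with cKO library 55 above every WT library and WT libraries 2 and 3 below every cKO library. The log2 difference was 0.01 with a 95% interval of -0.30 to 0.32 (limma, adjusted p = 0.953), which was 0.20 below the median gene. At P7 it had 90.3, 93.6 and 117 TPM in cKO libraries and 109, 77.1, 94.9, 85.5 and 74.1 TPM in WT libraries, with a difference of 0.08 (95% interval -0.21 to 0.37; limma, adjusted p = 1).

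Atf4 mRNA was lower at P21 than at P7 in WT hearts (log2 difference -0.51 ± 0.12, limma, adjusted p = 0.00112), but this was -0.04 relative to the median gene and turned to 0.04 under median-ratio scaling. In cKO hearts the same difference was -0.58 ± 0.14 (limma, adjusted p = 0.00357), which was -0.33 relative to the median gene and did not pass under median-ratio scaling (-0.29, limma, adjusted p = 0.191). The P1 WT libraries had 64.5, 71.3 and 83.7 TPM, within or below the P7 WT range, and the difference did not pass (limma, adjusted p = 0.656).

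Atf5 (ENSMUSG00000038539, chromosome 7, 44812256 to 44816658 on mm10, minus strand) encodes a related factor known from the mitochondrial unfolded protein response of mammalian cells. Its 3 P21 cKO libraries had nearly the same level, 30.4, 30.9 and 30.6 TPM, while P21 WT libraries 57, 60, 2 and 3 had 22.7, 36.2, 20.5 and 20.4 TPM. P21 WT library 60 was above all P21 cKO libraries and the other 3 were below them. The log2 difference was 0.14 (95% interval -0.21 to 0.48; limma, adjusted p = 0.556). Atf5 rose in WT hearts in the first postnatal week, to 30.7, 21.2, 23.3, 20.6 and 19.1 TPM at P7, against 12.7, 11.9 and 14.9 TPM at P1. These groups did not overlap, and the difference was 0.52 ± 0.16 (limma, adjusted p = 0.0254), but the call was lost in 6 of 29 other settings, among them without P1 WT library 1 (0.50, limma, adjusted p = 0.0641), without P1 WT library 2 (0.45, limma, adjusted p = 0.0906), without P7 WT library 1 (0.46, limma, adjusted p = 0.0906) and without P7 WT library 3 (0.52, limma, adjusted p = 0.0655). Between P7 and P21 its differences of 0.29 in cKO hearts and 0.13 in WT hearts did not pass (limma, adjusted p = 0.137 and 0.375), and they were 0.54 and 0.60 above the median gene. Under median-ratio scaling both were called, at 0.57 in cKO hearts (limma, adjusted p = 0.00949) and 0.67 in WT hearts (limma, adjusted p = 5.21e-04). Of the exonic bases of Atf5, 82 (4.11%) lie also in Nup62 and Il4i1 on the opposite strand, and the counting of strand is not given in the sources used here.

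Ddit3 (ENSMUSG00000025408, chromosome 10, 127290774 to 127296288 on mm10, plus strand) encodes CHOP, a factor tied to cell death under prolonged stress. It had 18.8, 14.8 and 16.6 TPM in P21 cKO libraries and 22.3, 14.9, 14.5 and 16.6 TPM in P21 WT libraries, with a log2 difference of -0.01 (95% interval -0.37 to 0.35; limma, adjusted p = 0.964). A second Ensembl identifier with the symbol Ddit3 was listed at 0 in all 19 libraries, and 68 exonic bases (3.97%) are shared with Mars on the opposite strand. Ddit3 was lower in P21 WT than in P7 WT hearts (-0.33 ± 0.14, limma, adjusted p = 0.0424), with overlapping ranges, but stood 0.14 above the median gene and at 0.20 higher under median-ratio scaling. Without P21 WT library 60 the call was lost (-0.26, limma, adjusted p = 0.143), as it was without any of 8 other libraries in turn. Trib3 (ENSMUSG00000032715, chromosome 2, 152337422 to 152344032 on mm10, minus strand) encodes a pseudokinase that CHOP and ATF4 switch on. It had 1.28, 1.73 and 1.54 TPM in P21 cKO libraries and 1.48, 1.05, 0.88 and 1.09 TPM in P21 WT libraries, with a difference of 0.25 (95% interval -0.09 to 0.58; limma, adjusted p = 0.263), and it passed in no comparison.

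**Figure D2:**
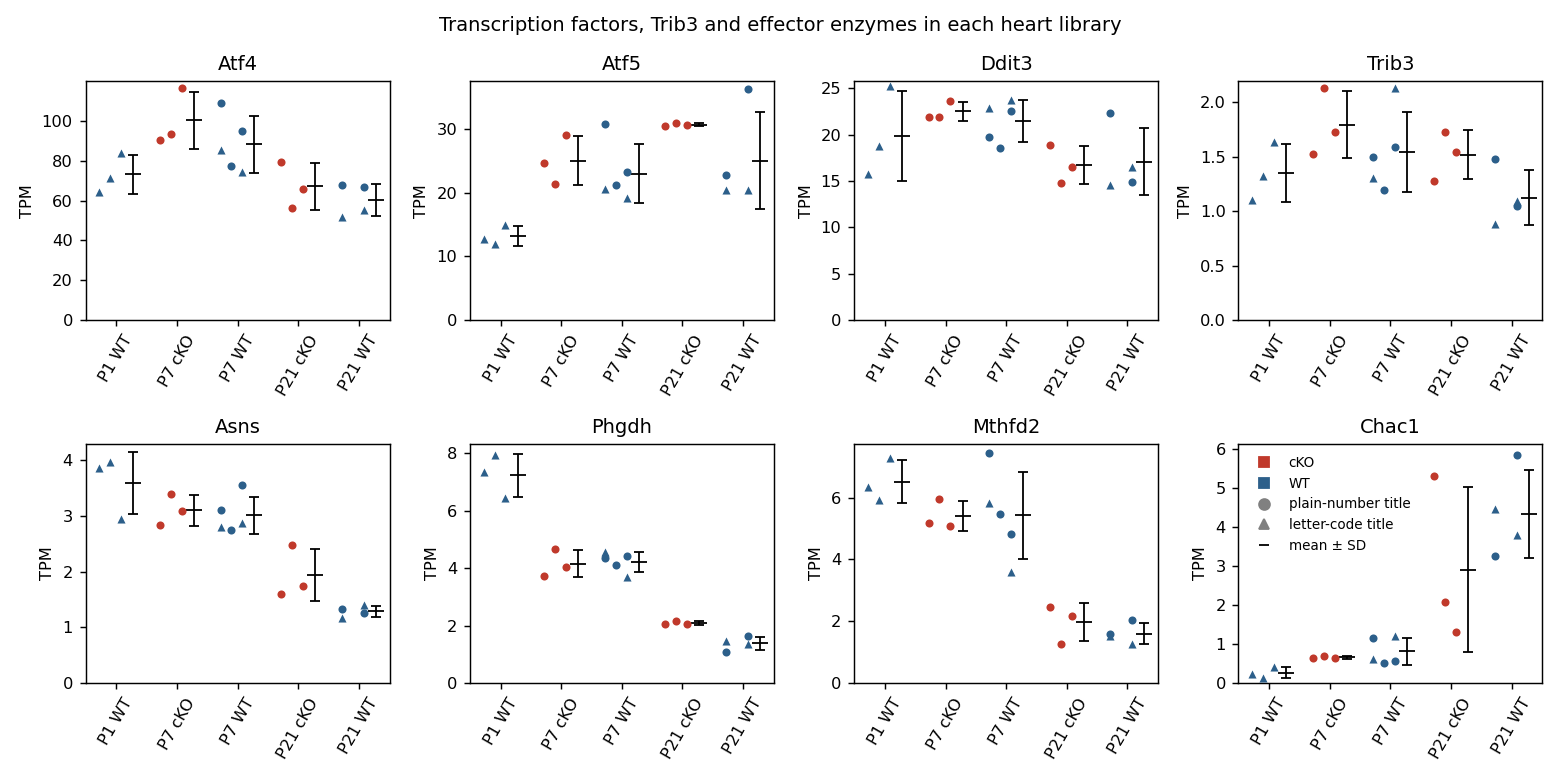
Levels of the 8 other tested genes in each of the 18 grouped libraries, in TPM on linear axes that start at 0, by group, with cKO in red and WT in blue; circles are plain-number and triangles letter-code titles, and the bar is the mean with its SD. Phgdh, Mthfd2 and Asns are lower at P21 than at P7 in both genotypes, and Chac1 is higher, with P21 cKO values of 1.31 to 5.31 TPM and P21 WT values of 3.26 to 5.86 TPM.

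Phgdh (ENSMUSG00000053398, chromosome 3, 98313170 to 98339990 on mm10, minus strand) encodes phosphoglycerate dehydrogenase, the first enzyme of serine synthesis from glycolysis. At P21 it was higher in cKO hearts, with 2.04, 2.15 and 2.07 TPM in cKO libraries and 1.09, 1.62, 1.45 and 1.35 TPM in WT libraries. The groups did not overlap. The means were 2.09 ± 0.0569 TPM in cKO hearts and 1.38 ± 0.222 TPM in WT hearts (SD, n = 3 and 4), a ratio of 1.51, and the log2 difference was 0.37 ± 0.11 (limma, adjusted p = 0.0315). Relative to the median gene this was 0.16. The call was lost in 11 of 28 other settings, among them median-ratio scaling (0.24, limma, adjusted p = 0.136), and in turn without P21 cKO libraries 55, 59 and 64 (0.39, 0.36 and 0.38, limma, adjusted p = 0.0515, 0.0883 and 0.0725), without P21 WT library 57 (0.27, limma, adjusted p = 0.162) and without P7 WT library 1 (0.35, limma, adjusted p = 0.0540). At P7 it had 3.74, 4.66 and 4.05 TPM in cKO libraries and 4.36, 4.11, 4.41, 4.55 and 3.68 TPM in WT libraries, a difference of -0.03 (95% interval -0.25 to 0.20; limma, adjusted p = 1).

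Phgdh fell with age at both steps in WT hearts. The P7 WT values just given were below all of the P1 WT values, 7.34, 7.94 and 6.44 TPM (log2 difference -0.66 ± 0.11, limma, adjusted p = 6.06e-04). The P21 WT values were below all P7 WT values (-1.14 ± 0.09, limma, adjusted p = 3.16e-08, and -0.67 relative to the median gene). The cKO hearts also fell between P7 and P21 (-0.73 ± 0.11, limma, adjusted p = 6.95e-05, and -0.49 relative to the median gene). The difference between the genotype effects at P21 and P7 was 0.40 ± 0.14 and did not pass (limma, adjusted p = 0.0898).

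Asns (ENSMUSG00000029752, chromosome 6, 7675169 to 7693254 on mm10, minus strand) encodes asparagine synthetase. At P21 it had 1.59, 2.48 and 1.75 TPM in cKO libraries and 1.33, 1.26, 1.16 and 1.40 TPM in WT libraries. The groups did not overlap, yet the log2 difference of 0.32 ± 0.13 (95% interval 0.04 to 0.60) did not pass (limma, unadjusted p = 0.0281, adjusted p = 0.0909), and it was 0.10 above the median gene. It passed without the title-style term (0.35, limma, adjusted p = 0.0474). At P7 cKO libraries had 2.83, 3.39 and 3.09 TPM and WT libraries 2.74 to 3.55 TPM, a difference of 0.01 (95% interval -0.25 to 0.27; limma, adjusted p = 1). Asns fell between P7 and P21 in WT hearts (-0.80 ± 0.11, limma, adjusted p = 6.51e-06, and -0.33 relative to the median gene) and in cKO hearts (-0.49 ± 0.13, limma, adjusted p = 0.00541, and -0.25 relative to the median gene). The cKO call was lost under median-ratio scaling (-0.29, limma, adjusted p = 0.0689).

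Mthfd2 (ENSMUSG00000005667, chromosome 6, 83305691 to 83325908 on mm10, minus strand) encodes a mitochondrial folate enzyme that is high in embryonic and dividing cells. It had 2.46, 1.27 and 2.16 TPM in P21 cKO libraries and 1.58, 2.05, 1.52 and 1.25 TPM in P21 WT libraries, with a log2 difference of 0.04 (95% interval -0.35 to 0.43; limma, adjusted p = 0.883). At P7 the cKO libraries had 5.18, 5.95 and 5.09 TPM, inside the WT range of 3.58 to 7.44 TPM (limma, adjusted p = 1), and P1 WT libraries had 5.92 to 7.28 TPM. It fell with age in both genotypes, to 1.96 ± 0.619 TPM at P21 against 5.41 ± 0.473 TPM at P7 in cKO hearts (SD, n = 3 each; -1.13 ± 0.18, limma, adjusted p = 1.03e-04) and to 1.60 ± 0.333 TPM at P21 against 5.43 ± 1.41 TPM at P7 in WT hearts (SD, n = 4 and 5; -1.26 ± 0.15, limma, adjusted p = 1.80e-06). Relative to the median gene these were -0.89 in cKO hearts and -0.79 in WT hearts. Cell-cycle mRNA fell over the same interval, with a summed level of 12 S phase and mitosis genes of 42.4 to 62.9 TPM in P21 cKO libraries against 401 to 454 TPM in P7 cKO libraries, and of 38.6 to 51.3 TPM in P21 WT libraries against 383 to 512 TPM in P7 WT libraries. Its part in the Mthfd2 difference was not tested. At P21 no gene of that list passed between genotypes (limma, 1 of 12 at an unadjusted p under 0.05).

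Chac1 (ENSMUSG00000027313, chromosome 2, 119351229 to 119354381 on mm10, plus strand) encodes an enzyme that breaks down glutathione and is a standard readout of ATF4 and CHOP in cultured cells. Its course was opposite to that of the synthesis enzymes. In WT hearts it had 0.23, 0.14 and 0.41 TPM at P1, 1.16, 0.51, 0.57, 0.62 and 1.20 TPM at P7 and 3.26, 5.86, 4.47 and 3.79 TPM at P21, with no overlap between successive ages. The rise to P21, 5.35 times the P7 mean, was 1.55 ± 0.24 on the log2 scale (limma, adjusted p = 2.51e-05) and 2.02 relative to the median gene. Chac1 was tested only because its P21 libraries passed the filter of 1 TPM, and its P1 WT and P7 cKO values were all under 1 TPM. The P7 over P1 difference of 0.53 ± 0.29 did not pass (limma, adjusted p = 0.192), though it did with a pseudocount of 0.1 (1.40, limma, adjusted p = 0.0334).

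In cKO hearts Chac1 was at 5.31, 2.09 and 1.31 TPM at P21, against 0.64, 0.70 and 0.63 TPM at P7, a difference of 1.10 ± 0.29 (limma, adjusted p = 0.00488). The gene entered the test through its P21 libraries, so the filter and this call are not independent. P21 cKO library 55 was inside the WT range and libraries 59 and 64 were below it. The genotype difference at P21 was -0.55 ± 0.29 (95% interval -1.17 to 0.08; limma, adjusted p = 0.181), 0.76 below the median gene. Without library 55 it was -0.96 and passed (limma, adjusted p = 0.0119). Within libraries, the ratio of Gdf15 to Chac1 in TPM was 1.36, 1.63 and 3.75 in P21 cKO hearts and 0.206, 0.0922, 0.0761 and 0.0792 in P21 WT hearts, so every P21 cKO library was above every P21 WT library in this ratio. Gdf15 alone already separated these groups, so the ratio says nothing more about Chac1. Library 55 had the highest level of 5 of the 9 tested genes among the P21 cKO libraries and the lowest of 4.

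Over the 9 tested members, the genotype differences were few. At P7, where 0.0203% of all tested genes were called higher and 0% lower in cKO hearts, no member was called (limma, 1 of 9 at an unadjusted p under 0.05, which was Gdf15, against 494 of 14812 genes), and the members' median difference was 0.01 beside -0.02 over all genes. After mitochondrially encoded and haemoglobin genes were left out and TPM rescaled, 3 genes were called higher and 2 lower at P7, in place of 3 and 0. At P21, where 19.5% of all tested genes were called higher and 1.77% lower, Gdf15 and Phgdh were called higher and no member lower, and the members' median was 0.14 beside 0.22 over all genes. A share of 2 of 9 members is near the 19.5% of all genes. Under median-ratio scaling 658 genes were called higher and 744 lower at P21, in place of 2893 and 262, so the split of calls depends on the scale. For the difference between the effects at P21 and P7, 7.04% of all genes were called higher and 0.52% lower, and Gdf15 alone of the members was called. Median-ratio scaling gave 152 genes higher and 195 lower there, in place of 1043 and 77, and Gdf15 was called in it too (1.33, limma, adjusted p = 0.0278).

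**Figure D3:**
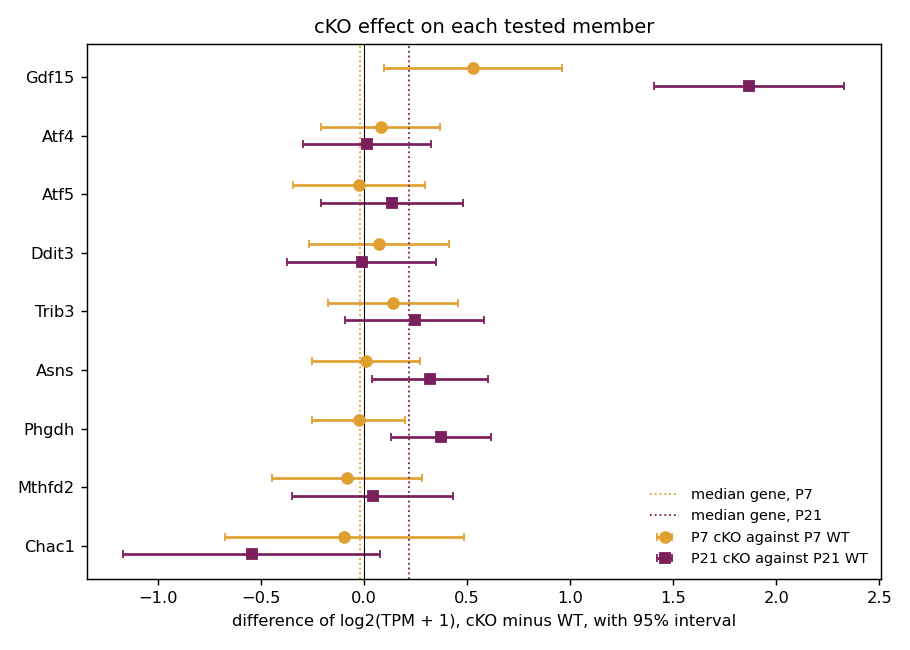
Difference of log2(TPM + 1) between cKO and WT hearts for the 9 tested genes at P7 (circles) and P21 (squares), with 95% intervals; dotted lines give the median of all 14812 genes at each age. Gdf15 at P21 lies at 1.87, with its interval from 1.41 to 2.33, and the other 8 genes at P21 lie between -0.55 and 0.37.

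Age differences touched more of the members. Between P1 and P7 in WT hearts, where 13.8% of all genes were called higher and 14.7% lower at P7, Atf5 was higher and Phgdh lower. Between P7 and P21 in WT hearts, where 8.1% were called higher and 64.4% lower at P21, Chac1 was higher and 6 members were lower, which were Gdf15, Atf4, Ddit3, Asns, Phgdh and Mthfd2. A share of 6 of 9 is near the 64.4% of all genes, and the members' median of -0.51 stood beside -0.47 over all genes. In cKO hearts, where 9.36% were called higher and 39% lower at P21, Chac1 was higher and Atf4, Asns, Phgdh and Mthfd2 were lower. With median-ratio scaling 3953 genes were called higher and 4144 lower between P7 and P21 in WT hearts, in place of 1200 and 9543, and 3003 higher and 2933 lower in cKO hearts, in place of 1387 and 5781. The comparisons of the ages within a genotype and of the genotypes within an age share libraries, so their values are given side by side and were not correlated.

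**Figure D4:**
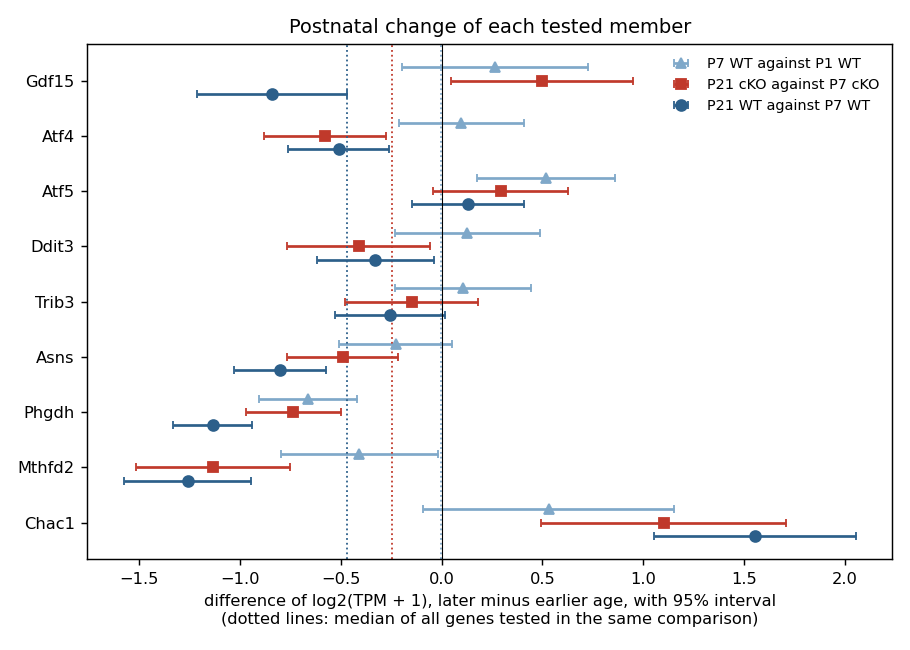
Difference of log2(TPM + 1) between successive ages for the 9 tested genes, later minus earlier age, with 95% intervals, for P7 against P1 in WT (triangles) and P21 against P7 in cKO (squares) and WT (circles); dotted lines give the median of all tested genes in each comparison. Chac1 lies right of 0 at 1.10 and 1.55 between P7 and P21, and Mthfd2 lies left of 0 at -1.13 and -1.26.

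The rest of the pathway was described with 10 lists that held 102 genes, of which 94 were tested. At P7 none of the 94 was called between genotypes (limma, 0 at an unadjusted p under 0.05). At P21, 21 were higher and 2 lower in cKO hearts, with a median of 0.17 beside 0.22 over all genes, and 21 of 94 is close to the 19.5% of all genes called higher. Upstream, among 12 genes for the eIF2 alpha kinases, phosphatases and eIF2B, 2 were higher. Ppp1r15a, which encodes the stress-induced subunit of the phosphatase that ends the response, had 30.7, 17.2 and 19.1 TPM in P21 cKO libraries and 15.3, 10.1, 8.08 and 9.99 TPM in P21 WT libraries. These groups did not overlap (0.81 ± 0.19, limma, adjusted p = 0.0103), and the call was lost under median-ratio scaling (0.59, limma, adjusted p = 0.107). Eif2ak3, which encodes the ER stress kinase PERK, was higher by 0.42 (limma, adjusted p = 0.0461). That call was lost in 20 of 28 other settings, with 0.25 under median-ratio scaling (limma, adjusted p = 0.218) and 0.27 without P21 WT library 57 (limma, adjusted p = 0.232). Of 5 genes that relay mitochondrial stress to the kinase HRI, the inner-membrane protease gene Yme1l1 was higher, at 18.1 ± 0.195 TPM in cKO hearts and 15.7 ± 1.53 TPM in WT hearts (SD, n = 3 and 4; 0.26, limma, adjusted p = 0.0447). This was 0.04 above the median gene, and the call was lost in 21 of 28 other settings, with 0.027 under median-ratio scaling (limma, adjusted p = 0.810). Of 7 other transcription factors of the pathway, Atf2 was higher (0.41, limma, adjusted p = 0.0306). The Atf2 call was lost in 11 of 28 other settings, among them median-ratio scaling (0.19, limma, adjusted p = 0.212) and, in turn, without P21 cKO libraries 55, 59 and 64 (0.41, 0.44 and 0.37) or P21 WT library 57 (0.34).

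Of 10 tested genes of serine and one-carbon metabolism beside Phgdh and Mthfd2, 2 were higher and 1 was lower in P21 cKO hearts, with the same counts under median-ratio scaling. The share called higher is near the 19.5% of all genes. Shmt1, the cytosolic serine hydroxymethyltransferase, had 6.76, 5.72 and 4.58 TPM in P21 cKO libraries and 1.93, 1.84, 2.02 and 1.94 TPM in P21 WT libraries (1.28 ± 0.15, limma, adjusted p = 8.99e-05). Every P21 cKO library was above every P21 WT library by more than 2 TPM, and all were below the P7 libraries, whose lowest value was 8.91 TPM. Psat1, the enzyme after Phgdh in serine synthesis, had 1.81, 2.36 and 2.91 TPM in P21 cKO libraries and 1.05, 1.29, 1.05 and 1.05 TPM in P21 WT libraries (0.69 ± 0.14, limma, adjusted p = 0.00437). Aldh1l2, a mitochondrial enzyme that oxidises formyl-tetrahydrofolate, had 1.02, 1.48 and 1.38 TPM in P21 cKO libraries and 3.34, 6.15, 4.81 and 3.96 TPM in P21 WT libraries (-1.23 ± 0.20, limma, adjusted p = 0.00113). It was the lower gene of the list, with no overlap between the groups.

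These 3 genes also passed the test of the difference between the effects at P21 and P7, with Shmt1 at 1.47, Psat1 at 0.84 and Aldh1l2 at -1.01 (limma, adjusted p = 0.00114, 0.0143 and 0.0297). Of all tested genes 7.04% were called higher and 0.52% lower in that difference. The P21 effect, by which these genes were named, is a part of it. The Aldh1l2 call was lost in 10 of 28 other settings, 7 of which left out a library (-0.83 to -1.14 over all libraries left out in turn). The Psat1 call was lost in 3 of 28, with one title style and with library 63 as a cKO or as a WT heart. The Shmt1 call was lost in 1 of 28, with library 63 as a cKO heart (1.16, limma, adjusted p = 0.136). In WT hearts Psat1 and Shmt1 fell with age, as Phgdh did. Psat1 was at 11.9 TPM at P7 against 19.5 TPM at P1 (-0.63, limma, adjusted p = 0.00342), and at 1.11 TPM at P21 against that P7 level (-2.62, limma, adjusted p = 3.00e-11). Shmt1 was at 1.93 TPM at P21 against 11.8 TPM at P7 in WT hearts (-2.12, limma, adjusted p = 5.10e-10) and at 5.69 TPM at P21 against 9.43 TPM at P7 in cKO hearts (-0.65, limma, adjusted p = 0.00149). Of the 10 genes, 8 were lower at P21 than at P7 in WT hearts, where 64.4% of all genes were, and 3 were under median-ratio scaling, where 4144 of 14812 genes were. The P21 mean levels of Phgdh, Psat1 and Shmt1 in cKO hearts lay between the P21 and P7 mean levels of WT hearts. These 3 genes were picked as higher in P21 cKO hearts and lower with age, so the choice largely sets this position. The share of all genes in that position was not counted. Aldh1l2 was outside it, at 1.3 TPM in P21 cKO, 4.6 TPM in P21 WT and 5.9 TPM in P7 WT hearts.

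Of 10 tested genes for amino acid synthesis and transport, which ATF4 is known to switch on, the cationic amino acid transporter gene Slc7a1 was higher at P21, at 16.7 ± 3.10 TPM in cKO hearts and 10.9 ± 1.64 TPM in WT hearts (SD, n = 3 and 4; 0.52, limma, adjusted p = 0.0361). Its call was lost in 10 of 28 other settings, among them median-ratio scaling (0.30, limma, adjusted p = 0.308) and, in turn, without P21 cKO libraries 55 and 59 (0.38 and 0.53) or P21 WT libraries 2, 57 and 60 (0.51, 0.39 and 0.47). Of 11 cytosolic aminoacyl tRNA synthetase genes, Wars was higher by 0.20 (limma, adjusted p = 0.0419), a call that was lost in 15 of 28 other settings and turned to -0.03 under median-ratio scaling. Of 10 other effectors downstream of ATF4 and CHOP, 3 were higher and 1 was lower, where 19.5% of all genes were called higher and 1.77% lower. Bbc3, which encodes the death-promoting protein PUMA, had 3.88, 5.12 and 5.05 TPM in P21 cKO libraries and 2.74, 2.70, 1.77 and 2.08 TPM in P21 WT libraries (0.73 ± 0.16, limma, adjusted p = 0.00644), and its effect at P21 exceeded that at P7 (0.98, limma, adjusted p = 0.0130). Its P21 call was lost with only the groups compared and with library 63 as a cKO heart. For the difference of effects 7.04% of all genes were called higher. The Bbc3 call there was lost with one title style and with library 63 as a cKO heart. The autophagy receptor gene Sqstm1 (0.30, limma, adjusted p = 0.0458) and the ER oxidase gene Ero1l (0.42, limma, adjusted p = 0.0472) were higher. The Sqstm1 call was lost in 20 of 28 other settings, with 0.058 under median-ratio scaling (limma, adjusted p = 0.786) and 0.17 without P21 cKO library 55 (limma, adjusted p = 0.161). The Ero1l call was lost in 22 of 28, with 0.21 under median-ratio scaling (limma, adjusted p = 0.317). Chac2, a paralog of Chac1, was lower, at 6.87 ± 1.99 TPM in cKO hearts and 10.1 ± 0.171 TPM in WT hearts (SD, n = 3 and 4; -0.51, limma, adjusted p = 0.0436). The Chac2 call was lost in 16 of 28 other settings, and without P21 cKO library 55 the difference was -0.28 (limma, adjusted p = 0.147).

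Of 15 tested genes of the ER unfolded protein response, 9 were higher in P21 cKO hearts and 0 lower (limma, 11 of 15 at an unadjusted p under 0.05), with a median of 0.47, which was 0.25 above the median gene. Hsp90b1, the ER form of the chaperone HSP90, had 210, 200 and 170 TPM in P21 cKO libraries (199.7 in library 59) and 114, 131, 125 and 127 TPM in P21 WT libraries (0.73 ± 0.10, limma, adjusted p = 4.08e-04). The disulfide isomerase genes Pdia4 (0.69, limma, adjusted p = 5.71e-04) and Pdia6 (0.49, limma, adjusted p = 0.0153) and the transcription factor gene Xbp1 (0.45, limma, adjusted p = 0.0105) were higher too. Under median-ratio scaling 2 of the 15 were called higher, where 658 of all tested genes were, in place of 2893 on the TPM scale. Pdia6 (0.25, limma, adjusted p = 0.272) and Xbp1 (0.22, limma, adjusted p = 0.293) were not called there, and the calls of Hsp90b1 and Pdia4 held in all 28 other settings. At P7 none of the 15 was called (limma, 0 at an unadjusted p under 0.05), and the effect at P21 exceeded that at P7 for Hsp90b1 (0.66, limma, adjusted p = 0.0100) and Pdia4 (0.63, limma, adjusted p = 0.0122), calls that were lost under median-ratio scaling (0.39 and 0.38, limma, adjusted p = 0.142 and 0.0965). On the TPM scale 7.04% of all genes were called higher in that difference. Fibroblast markers, of which all 8 were higher in P21 cKO hearts, moved with this list, and their part in it was not tested. Of 11 mitochondrial chaperone and protease genes none passed at P21 (limma, 0 at an unadjusted p under 0.05), with a median of 0.03 and with the protease gene Lonp1 at 0.08 and Htra2 at 0.11. Under median-ratio scaling 2 of them were called lower, where 744 of all tested genes were, in place of 262.

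**Figure D5:**
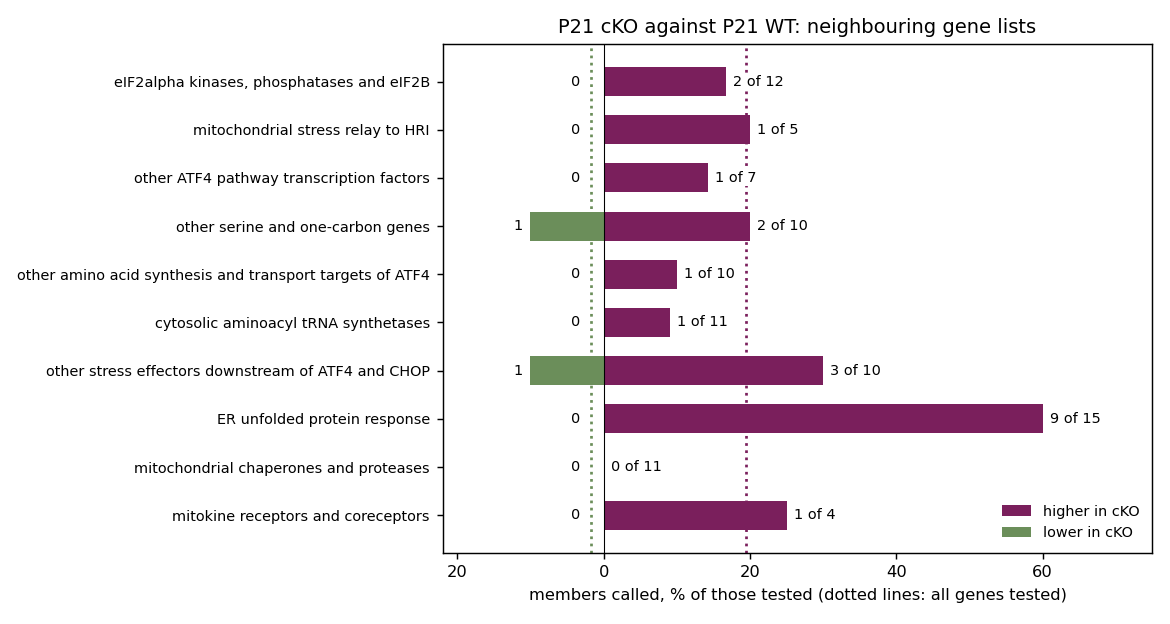
Share of the tested genes of each of 10 pathway lists that were called higher (right of 0) or lower (left of 0) in P21 cKO against P21 WT hearts, in percent of the genes tested, with counts printed; dotted lines mark 19.5% higher and 1.77% lower over all tested genes. On this TPM scale the ER unfolded protein response has 9 of 15 higher, and the mitochondrial chaperones and proteases have 0 of 11. Under median-ratio scaling 2 of the 15 were called higher, where 658 of all tested genes were, in place of 2893.

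Library 63, whose genotype label and title differ in form, had 0.36 TPM of Gdf15, inside the P21 WT range and below the P21 cKO range. It had 1.82 TPM of Shmt1 and 4.63 TPM of Aldh1l2, against 4.58 to 6.76 TPM and 1.02 to 1.48 TPM in P21 cKO libraries and 1.84 to 2.02 TPM and 3.34 to 6.15 TPM in P21 WT libraries. Phgdh was at 2.33 TPM, above both the P21 cKO range of 2.04 to 2.15 TPM and the P21 WT range of 1.09 to 1.62 TPM, and Asns was at 1.61 TPM, inside the P21 cKO range of 1.59 to 2.48 TPM and above the P21 WT range of 1.16 to 1.40 TPM. Counted as a WT heart, it left the Gdf15 difference at 1.94 (limma, adjusted p = 1.63e-05) and ended the Phgdh call (0.25, limma, adjusted p = 0.177). Its genotype was not inferred from these values.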

How the data were processed

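RNA-seq values of 19 whole-heart libraries were used as 1 table of TPM values (transcript abundances scaled per library) deposited by the authors for 56066 genes. The submitters' processing notes name TopHat2 2.0.14, Cufflinks 2.2.1 and mm10. Which tool made the TPM values, which annotation it used and whether strand counted are not given in the sources used here. A SMARTer mRNA kit was used on RNA taken with RNA iso Plus, per the labels' protocols. Depth is unknown, and the deposited TPM values allow no counting interval. The 2 columns of per-sample values that matched no sample were not used.

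log2(TPM + 1) was fitted in limma 3.58.1 (R 4.3.3, eBayes with trend) over 18 libraries and the 14812 genes that reached 1 TPM in 3 or more libraries. The model held group and title style. p-values were adjusted (Benjamini-Hochberg) within each of 6 comparisons, with calls at 0.05. The fit was tested on simulated data. Median-ratio scaling, filters, pseudocounts, title style, the replicate block, library 63 and each library left out in turn were tried as alternatives. The members and gene lists were chosen with earlier results of these data known. Named list genes are up to 4 with the smallest p among those that passed in a comparison, or up to 2 where none passed. Promoter sequences come from RefSeq on GRCm38.p6.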

Additional observations from a re-analysis of the deposited data

Results flagged for a closer look

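The Gdf15 difference between the genotype effects at P21 and P7 was 1.34 on the log2 scale (limma, adjusted p = 0.0126). Its call was lost with only plain-number libraries and with library 63 as a cKO heart (0.81, limma, adjusted p = 0.379). The Gdf15 level was higher in all 3 P21 cKO libraries than in all 4 P21 WT libraries. In P21 WT hearts, library 60 stood apart from the other 3 in Atf5, with 36.2 TPM. In P7 WT hearts, library 3 was the sole one of 5 with any Fgf21, at 0.16 TPM. The test for a single distant sample picks out about 1 in 20 groups by chance. This rate does not hold for Fgf21. All other P7 WT libraries were listed at 0 for it, so any single value above 0 is picked out.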

How the results depend on the processing

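Depth is unknown for TPM, and 3 to 5 libraries a group limit precision. Causes of the changes below were not tested.

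The count of members called at P21 between genotypes was 2. It was 1 under median-ratio scaling, no filter, one title style, only the groups compared, or library 63 as cKO or as WT, and 0 with a filter of 5 TPM. That filter left Gdf15, Asns, Trib3 and Chac1 untested, and the Phgdh call was lost under it. The count for the difference between the effects at P21 and P7 was 1, which was Gdf15. It was 0 with one title style or library 63 as cKO, and with a filter of 5 TPM, where Gdf15 was not tested. Between P7 and P21 in WT hearts 7 were called. With a filter of 5 TPM 4 were called, and Gdf15, Asns and Chac1 were not tested. Between P1 and P7 in WT hearts 2 were called, and 1 with no filter. Replicate numbers did not pair the libraries (correlations of deviations -0.10 to 0.07), and with the replicate block among letter-code WT libraries 0 were called between P1 and P7, and the Gdf15 call between P7 and P21 in WT hearts was lost (-0.75, limma, adjusted p = 0.0683). Leaving out each library in turn gave 1 to 2 members at P21 between genotypes, 1 to 2 for the difference of effects, 1 to 2 between P1 and P7, 6 to 8 between P7 and P21 in WT and 5 to 6 in cKO hearts.

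Log2 differences that changed sign under median-ratio scaling were Atf4 -0.23, Atf5 -0.10, Mthfd2 -0.12 and Wars -0.027 at P21 between genotypes; Atf5 -0.094, Trib3 -0.034 and Mthfd2 -0.046 for the difference of effects; Atf4 0.041, Ddit3 0.20 and Trib3 0.066 between P7 and P21 in WT hearts; and Trib3 0.031 in cKO hearts. Without mitochondrially encoded and haemoglobin genes, Atf4 was -0.035 at P21. With no title style, Atf5 was 0.13 and Mthfd2 0.021 at P7. With one title style or only the groups compared, Atf5 was 0.0044 and Asns -0.0081 at P7 and Atf4 -0.015 at P21, and with one title style Trib3 was -0.046 for the difference of effects. With library 63 as cKO, Atf4 was -0.066 at P21 and Gdf15 -0.037 between P7 and P21 in cKO hearts. With library 63 as WT, Asns was -0.0021 at P7 and Ddit3 0.058 at P21.

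Leaving out 1 library also turned signs among differences that did not pass. At P7 the ranges were -0.033 to 0.16 for Atf4, -0.14 to 0.076 for Atf5, -0.041 to 0.069 for Asns, -0.18 to 0.012 for Chac1, -0.097 to 0.031 for Phgdh and -0.17 to 0.034 for Mthfd2. At P21 they were -0.11 to 0.13 for Atf4, -0.024 to 0.35 for Atf5, -0.10 to 0.21 for Ddit3 and -0.080 to 0.22 for Mthfd2. For the difference of effects they were -0.20 to 0.053 for Atf4, -0.17 to 0.083 for Ddit3 and -0.0062 to 0.20 for Trib3. Between P1 and P7 they were -0.019 to 0.30 for Ddit3 and -0.073 to 0.19 for Trib3, and between P7 and P21 in WT hearts -0.028 to 0.25 for Atf5.

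Over all genes, leaving out 1 library moved the calls at P21 to between 1274 and 4819 higher and 181 and 327 lower, against 2893 and 262. For the difference of effects it gave 326 to 3000 higher and 31 to 135 lower, against 1043 and 77. Over all alternatives these ran from 357 to 4819 and 47 to 744 at P21, and from 0 to 3000 and 0 to 195 for the difference of effects. At P7 they ran from 0 to 9 higher and 0 to 8 lower, against 3 and 0. Between P1 and P7 they ran from 323 to 2433 higher and 314 to 2804 lower, against 2043 and 2174. Between P7 and P21 they ran from 448 to 3953 higher and 4144 to 9915 lower in WT hearts, against 1200 and 9543, and from 959 to 3003 higher and 2933 to 6461 lower in cKO hearts, against 1387 and 5781.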
